A study of Oreochromis niloticus with 14 samples.

Results

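The genes g0s2 (ENSONIG00000021134) and lipea (ENSONIG00000013751) belong to lipolysis, the breakdown of stored fat. They are 2 of the 12377 genes that the liver table (12902 genes) and the testis table (16930 genes) of Nile tilapia share, and they were selected by their Ensembl gene IDs with their lower liver level under benzo(a)pyrene (BaP) already known. The study lists g0s2 among the genes altered in both tissues and lipea among those altered in liver only, in these same libraries. The levels of g0s2 in both tissues and of lipea in liver are therefore given as a description, with no p. The level of lipea in testis did not choose the gene and was tested. The study's own test of the same testis libraries had not listed lipea, so that a high p here repeats that outcome.

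BaP is a polycyclic aromatic hydrocarbon formed by incomplete combustion. Adult male fish, 1 year old, were injected intraperitoneally 5 times with BaP at 3 mg/kg, 6 days apart, and sampled on day 26. Control fish were injected on the same schedule with the carrier of the BaP fish, DMSO in corn oil. RNA-Seq covered the liver of 4 BaP and 4 control fish and the testis of 3 BaP and 3 control fish, each library from its own fish within a tissue according to the titles. BaP and control fish were kept in separate aquaria, so that effects of BaP and of the aquarium cannot be told apart. The title numbers 11, 14, 15, 18, 19 and 20 occur in both tissues and may stand for the same fish.

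In mammals, the triacylglycerol of a lipid droplet is opened by adipose triglyceride lipase (the product of PNPLA2), which needs the co-activator ABHD5. The small protein G0S2 binds this lipase and inhibits it. Hormone-sensitive lipase, the product of LIPE, then acts on the diacylglycerol that is released, and it is switched on by cAMP and protein kinase A and restrained by insulin. In the fasted liver of mammals these steps supply fatty acids for oxidation, and in the testis hormone-sensitive lipase also releases stored cholesterol from its esters. Hence the first member is a brake of lipolysis and the second one of its enzymes. The genome of tilapia carries a second gene of the second kind, lipeb, which was not analysed here.

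Levels are normalized CPM, counts per 1000000 reads on genes after scaling of each library. The libraries held 12485109 to 42836246 reads on genes in liver and 26694344 to 30347667 in testis. The smallest level taken as shown, 3 reads, corresponds to at most 0.27 normalized CPM in liver and 0.111 in testis, and every level of both members was above it. Hepatocyte markers summed to between 97309 and 148158 in the BaP livers and between 64399 and 107387 in the control livers. The sum is over all 8 genes of the list, of which C3 had a lower mean with BaP and the others a higher one. Every marker gene used here was taken from genes the study called altered, so that a sum is no independent measure of cell content. In the testis libraries the summed level of the 7 measured hepatocyte markers was 75.1, 547 and 48.4 in the BaP fish and 40.4, 34.6 and 49.0 in the control fish. Of 2 testis markers only sox9a, a Sertoli cell gene, was measured in testis, at 17.5, 13.2 and 25.4 in the BaP fish and 13.1, 7.71 and 23.3 in the control fish. The other, spag1a, was measured in liver only, with means of 2.11 in BaP and 0.27 in control livers. It therefore does not serve as a testis marker here. In whole tissue, fewer cells of a type and less RNA per cell cannot be told apart.

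g0s2, the brake, was 8.16-fold lower in the BaP livers. It had 195.1, 158.7, 72.8 and 112.9 normalized CPM in the BaP livers (fish 16, 15, 14 and 11), against 653.3, 1832.4, 740.1 and 1174.7 in the control livers (fish 20, 19, 18 and 17). The highest BaP liver was thus below the lowest control liver, by a factor of 3.35. The means were 135 ± 53.4 in BaP and 1100 ± 539 in control livers (SD, n = 4 each), a log2 fold change of -2.99 with a standard error (SE) of 0.40. In reads, 810 to 5719 fell on g0s2 in the BaP livers and 14141 to 59120 in the control livers, so that counting error is small beside the spread between fish.

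lipea, the enzyme, was 4.10-fold lower in the BaP livers. It had 9.80, 14.4, 13.4 and 11.5 normalized CPM in the BaP livers (142 to 518 reads), against 72.8, 61.1, 31.5 and 35.6 in the control livers (601 to 1972 reads). The groups did not overlap here either, and the lowest control liver was 2.19 times the highest BaP liver. The means were 12.3 ± 2.04 in BaP and 50.2 ± 19.9 in control livers (SD, n = 4 each), a log2 fold change of -1.88 (SE 0.30). Of all liver genes, 3.67% had all BaP livers below all control livers. Nothing is read from this share for the members, since the liver difference was used to choose them.

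**Figure D1:**
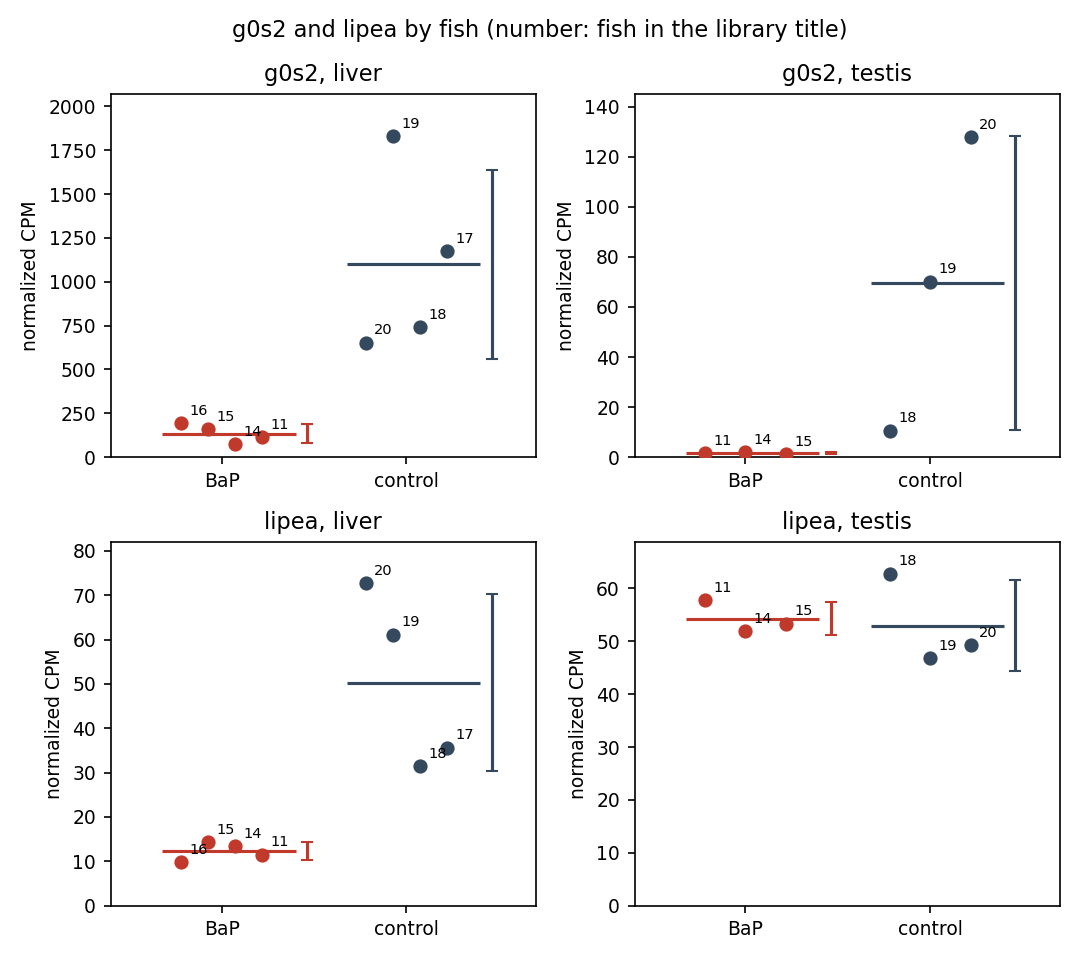
Level of g0s2 (top) and lipea (bottom) in each liver (left panels) and testis (right panels), in normalized CPM on linear axes that start at 0. Points are fish with their title numbers, lines the group means and bars ± SD; BaP and control fish overlap in the panel of lipea in testis, where BaP fish had 51.9 to 57.7 and control fish 46.8 to 62.7.

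In testis the members differed from each other. g0s2 had 1.58, 2.02 and 1.20 normalized CPM in the BaP testes (fish 11, 14 and 15), against 10.6, 70.1 and 127.9 in the control testes (fish 18, 19 and 20). All 3 BaP testes lay close together near the low end of the table, and the lowest control testis was 5.27 times the highest BaP testis. The means were 1.60 ± 0.41 in BaP and 69.5 ± 58.6 in control testes (SD, n = 3 each), which is 43.5-fold lower with BaP. On the scale of log2 of the level plus 1 the fold change was -4.20 (SE 0.82), smaller than the ratio of the means because of the added 1 and because the control fish were unequal. The BaP levels rest on 43, 61 and 37 reads, with exact 95% Poisson intervals of 1.14 to 2.13, 1.54 to 2.59 and 0.844 to 1.65 normalized CPM that cover counting error only.

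The control testes themselves spanned a wide range. Control replicate 1 (fish 18), with 288 reads, stood below the other control testes, which had 2019 and 3492 reads. Without it the log2 fold change of g0s2 was -5.22, and without control replicate 3 it was -3.48. Of all testis genes, 2.84% had every BaP testis below every control testis, a share from which nothing is read for g0s2 because the study listed it for this contrast.

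lipea had 57.7, 51.9 and 53.3 normalized CPM in the BaP testes (1570 to 1645 reads), against 62.7, 46.8 and 49.2 in the control testes (1344 to 1700 reads). The groups overlapped, with the highest and the lowest fish both in the control group. The means were 54.3 ± 3.04 in BaP and 52.9 ± 8.59 in control testes (SD, n = 3 each), a log2 fold change of 0.05 (SE 0.20, limma adjusted p = 1.00 over all testis genes). The 95% interval of this difference was -0.42 to 0.51, which is a ratio of 0.746 to 1.43 for BaP over control. Whether the differences of lipea in liver and testis are unequal was not tested, since the liver difference chose the gene.

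The tables of the tissues were normalized separately, and the order of levels across them is coarse. For g0s2 the order was control livers, BaP livers, control testes and BaP testes. Its BaP livers (72.8 to 195.1) and control testes (10.6 to 127.9) overlapped, and the other neighbours in this order did not. For lipea the BaP testes, the control testes and the control livers (31.5 to 72.8) overlapped, and only the BaP livers (9.80 to 14.4) stood below the rest. The lipea levels of liver and testis overlapped in control fish and not in BaP fish. Nothing is read from this, since the low level of the BaP livers chose the gene.

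The ratio of the members can be given free of the scaling, as reads of g0s2 per read of lipea in the same library. In liver it was 19.9, 11.0, 5.44 and 9.84 in the BaP fish and 8.98, 30.0, 23.5 and 33.0 in the control fish. The mean was 11.6 ± 6.06 in BaP and 23.9 ± 10.7 in control livers (SD, n = 4 each), and the groups overlapped through control replicate 1 (fish 20), whose lipea level was the highest of all livers. In testis the ratio was 0.0274, 0.0389 and 0.0225 in the BaP fish and 0.169, 1.497 and 2.60 in the control fish, with no overlap. Since lipea overlapped between the testis groups, this separation restates the g0s2 difference for which the study listed that gene. The transcripts differ in length, so that the ratio can be compared between libraries but does not give which transcript was more abundant.

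**Figure D2:**
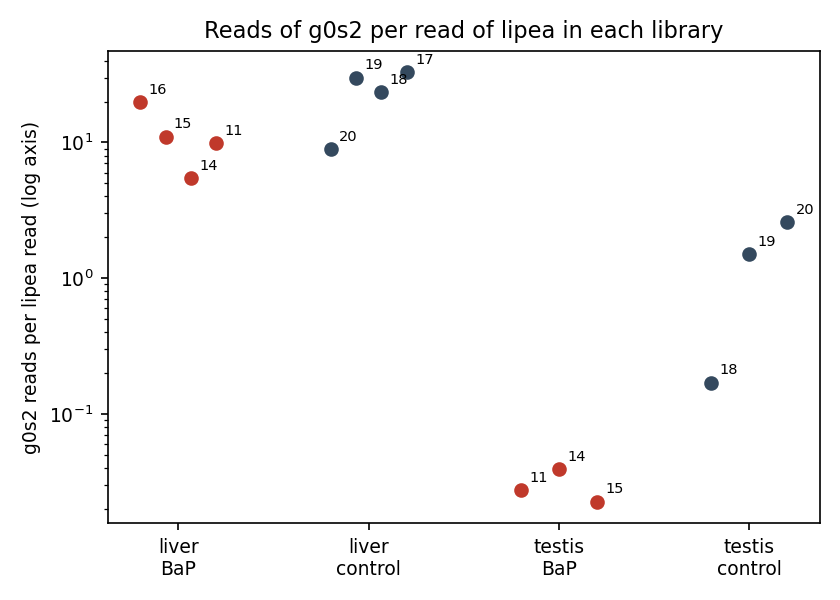
Reads of g0s2 per read of lipea in each library, on a log axis, for BaP (red) and control (dark) fish of liver and testis, with the title number of each fish. Liver groups overlap, at 5.44 to 19.9 in BaP and 8.98 to 33.0 in control fish, and testis groups do not, at 0.0225 to 0.0389 in BaP and 0.169 to 2.60 in control fish.

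Across the 8 livers the log2 levels of g0s2 and lipea had a Pearson r of 0.86, which placed lipea at rank 230 among 12525 genes ordered by their r with g0s2. This r follows the difference between the groups. With each group centred on its own mean it was -0.06, and the plot of the livers shows no joint order of the fish within a group. Control replicate 2 (fish 19) had the highest g0s2 level and control replicate 1 (fish 20) the highest lipea level. Across the 6 testes r was -0.53, and -0.87 after centring, where fish 18 had the least g0s2 and the most lipea of the control testes. These values are descriptions over few libraries that share their scaling.

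**Figure D3:**
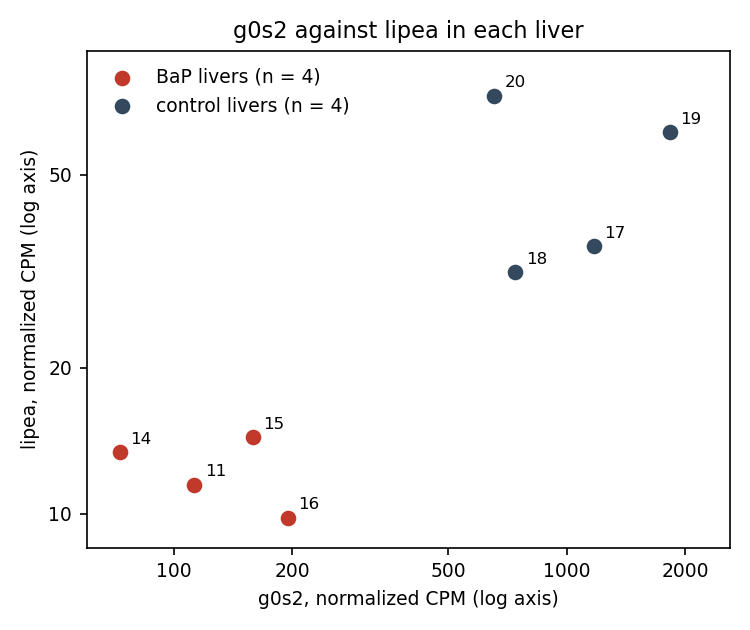
Level of g0s2 (x axis) against that of lipea (y axis) in each liver, both in normalized CPM on log axes, with title numbers. The 4 BaP livers (red) lie in the lower left, at g0s2 levels up to 195.1 and lipea levels up to 14.4, and the 4 control livers (dark) in the upper right, with no shared order within either group (r = -0.06 after centring on the group means).

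The genes with a name whose liver pattern was most like that of g0s2 were frya (r = 0.981), NCOA7 (r = 0.980), a nuclear receptor coactivator, and bhlhe40 (r = 0.974), a transcriptional repressor tied to the circadian clock in mammals. They held ranks 1 to 3 of 12525 genes over the 8 livers. Their mean levels were 53.6 ± 7.72, 30.9 ± 5.04 and 9.15 ± 2.45 in BaP livers, against 108 ± 15.5, 316 ± 145 and 198 ± 140 in control livers (SD, n = 4 each). For lipea they were SENP7 (r = 0.980), a protease that removes SUMO, pinx1 (r = 0.974), an inhibitor of telomerase in human cells, and mospd1 (r = 0.970), at ranks 2 to 4. The gene at rank 1 carried no name. Levels of these were 14.7 ± 1.33, 2.17 ± 0.29 and 28.4 ± 7.38 in BaP livers, against 22.4 ± 2.31, 4.31 ± 1.17 and 69.1 ± 14.8 in control livers (SD, n = 4 each). All of these had lower means in the BaP livers, as the members did, and names were at hand only for genes that the study called altered, so that likeness to a member repeats that difference.

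Of the 3 partners of the members in the lipolysis core, 2 were lower and 0 higher in the BaP livers at an unadjusted p under 0.05 with a fold change over 1.5, the study's threshold, where 6.07% of all genes were lower and 5.93% higher. By limma 0 of the 3 passed an adjusted p of 0.05, where 0.0698% of all genes did. All 3 were taken from genes the study called altered, so that these counts describe that choice. PNPLA2, the lipase that G0S2 inhibits, had 82.5, 105, 93.1 and 40.9 normalized CPM in the BaP livers, against 113.9, 49.6, 84.2 and 43.0 in the control livers. The groups overlapped throughout, and the log2 fold change was 0.17 (SE 0.38, limma adjusted p = 0.879). With scaling by library size only it was -0.03. ABHD5, the co-activator of that lipase, had 14.2, 9.49, 15.9 and 10.4 in the BaP livers and 26.8, 19.1, 15.1 and 22.0 in the control livers, overlapping in a single pair of fish. Its log2 fold change was -0.69 (SE 0.25, limma adjusted p = 0.299). plin2, a coat protein of lipid droplets, averaged 54.6 ± 31.3 in BaP and 108 ± 43.4 in control livers (SD, n = 4 each), with a log2 fold change of -1.02 (SE 0.43, limma adjusted p = 0.344).

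In testis PNPLA2 had 15.8, 21.3 and 30.3 normalized CPM in the BaP fish and 23.3, 34.5 and 60.5 in the control fish, overlapping, with a log2 fold change of -0.73 (SE 0.39). plin2 had 66.5, 54.4 and 46.8 in the BaP testes and 61.9, 105 and 145.5 in the control testes, a log2 fold change of -0.82 (SE 0.34). ABHD5 averaged 4.92 ± 1.71 in BaP and 4.58 ± 0.45 in control testes (SD, n = 3 each), a log2 fold change of 0.05 (SE 0.25). The adjusted p of each of the 3 genes was 1.00 from limma.

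Beyond the members, 31 genes of lipid handling were described in 5 lists: the lipolysis core above, hormone and cAMP control, fatty acid uptake and transport, fatty acid oxidation and triacylglycerol synthesis. All 31 were taken from genes the study called altered, mostly in liver, so that their liver counts describe that choice and are no independent evidence of a direction. In liver 0 of the 31 passed an adjusted p of 0.05 from limma, where 0.0698% of all genes did. edgeR's quasi-likelihood test also gave 0, its exact test 6 and DESeq2's Wald test 8. Without control replicate 3 limma gave 7. At an unadjusted p under 0.05 with a fold change over 1.5, 19 of the 31 were lower in the BaP livers, where 6.07% of all genes were, and 3 were higher, where 5.93% were. The same 19 and 3 were counted at an unadjusted p under 0.05 alone. Leaving out control replicate 1 gave 11 lower genes, and leaving out control replicate 2 or BaP replicate 4 gave 12. The median log2 fold change of the 31 genes was -0.92, beside 0.02 over all liver genes.

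The hormone and cAMP list had 7 of 9 genes lower and 1 higher in the BaP livers at this threshold. Its smallest p-values were those of pde7a and pde4cb, phosphodiesterases that break down cAMP. pde7a averaged 4.80 ± 1.01 in BaP and 11.7 ± 2.99 in control livers, with a log2 fold change of -1.11 (SE 0.24, limma adjusted p = 0.169). pde4cb averaged 2.12 ± 1.72 in BaP and 7.03 ± 2.92 in control livers, with a log2 fold change of -1.47 (SE 0.40, limma adjusted p = 0.209). Neither gene overlapped between the groups, where 3.67% of all liver genes had every BaP liver below every control liver. Nothing is read from this, since both genes were named for their small p. The gene that was higher, named after its value was seen, was the melanocortin receptor mc5ra, with 1.38 to 7.03 in the BaP and 0.372 to 1.05 in the control livers (adjusted p = 0.281 from limma).

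The list of fatty acid uptake and transport had 6 of 7 genes lower and 0 higher at the same threshold. lipf, an acid lipase gene, had 91.3 to 105.7 normalized CPM in the BaP livers and 155.2 to 288 in the control livers, with a log2 fold change of -1.04 (SE 0.23, limma adjusted p = 0.169). lpl, the lipoprotein lipase that frees fatty acids from circulating lipoproteins, averaged 400 ± 311 in BaP and 1040 ± 258 in control livers, with a log2 fold change of -1.65 (SE 0.47, limma adjusted p = 0.222). One BaP liver, replicate 1 (fish 16), had 845.3 and reached the control range of 731 to 1266. That fish also had the highest g0s2 level of the BaP livers, but the lowest lipea level of them (9.80).

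Triacylglycerol synthesis had 3 of 5 genes lower and 0 higher. lpin1, a phosphatidate phosphatase, averaged 2.57 ± 1.18 in BaP and 10.8 ± 5.90 in control livers, with a log2 fold change of -1.67 (SE 0.36, limma adjusted p = 0.169). acsl4a, an acyl-CoA synthetase, averaged 11.7 ± 3.52 in BaP and 35.3 ± 19.3 in control livers, with a log2 fold change of -1.41 (SE 0.39, limma adjusted p = 0.212).

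Fatty acid oxidation was divided, with 1 of 7 genes lower and 2 higher, and a median log2 fold change of 0.73. The lower gene was cpt1cb, a carnitine palmitoyltransferase, at 59.6 ± 49.7 in BaP and 125 ± 33.9 in control livers, with a log2 fold change of -1.35 (SE 0.50, limma adjusted p = 0.297). The higher ones were CRAT, a carnitine acetyltransferase, and acaa1, a peroxisomal thiolase that was named after its value was seen. CRAT had 7.91 to 11.6 in the BaP livers and 3.79 to 7.33 in the control livers, with a log2 fold change of 0.94 (SE 0.24, limma adjusted p = 0.196). A second carnitine acetyltransferase gene of the list, cratb, named after its value was seen, went the other way without reaching the threshold. It averaged 24.3 ± 4.21 in BaP and 50.9 ± 32.6 in control livers, overlapping, with a log2 fold change of -0.85 (SE 0.39, limma adjusted p = 0.377). acaa1 averaged 140 ± 29.8 in BaP and 85.0 ± 21.8 in control livers, with a log2 fold change of 0.73 (SE 0.27, limma adjusted p = 0.299).

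**Figure D4:**
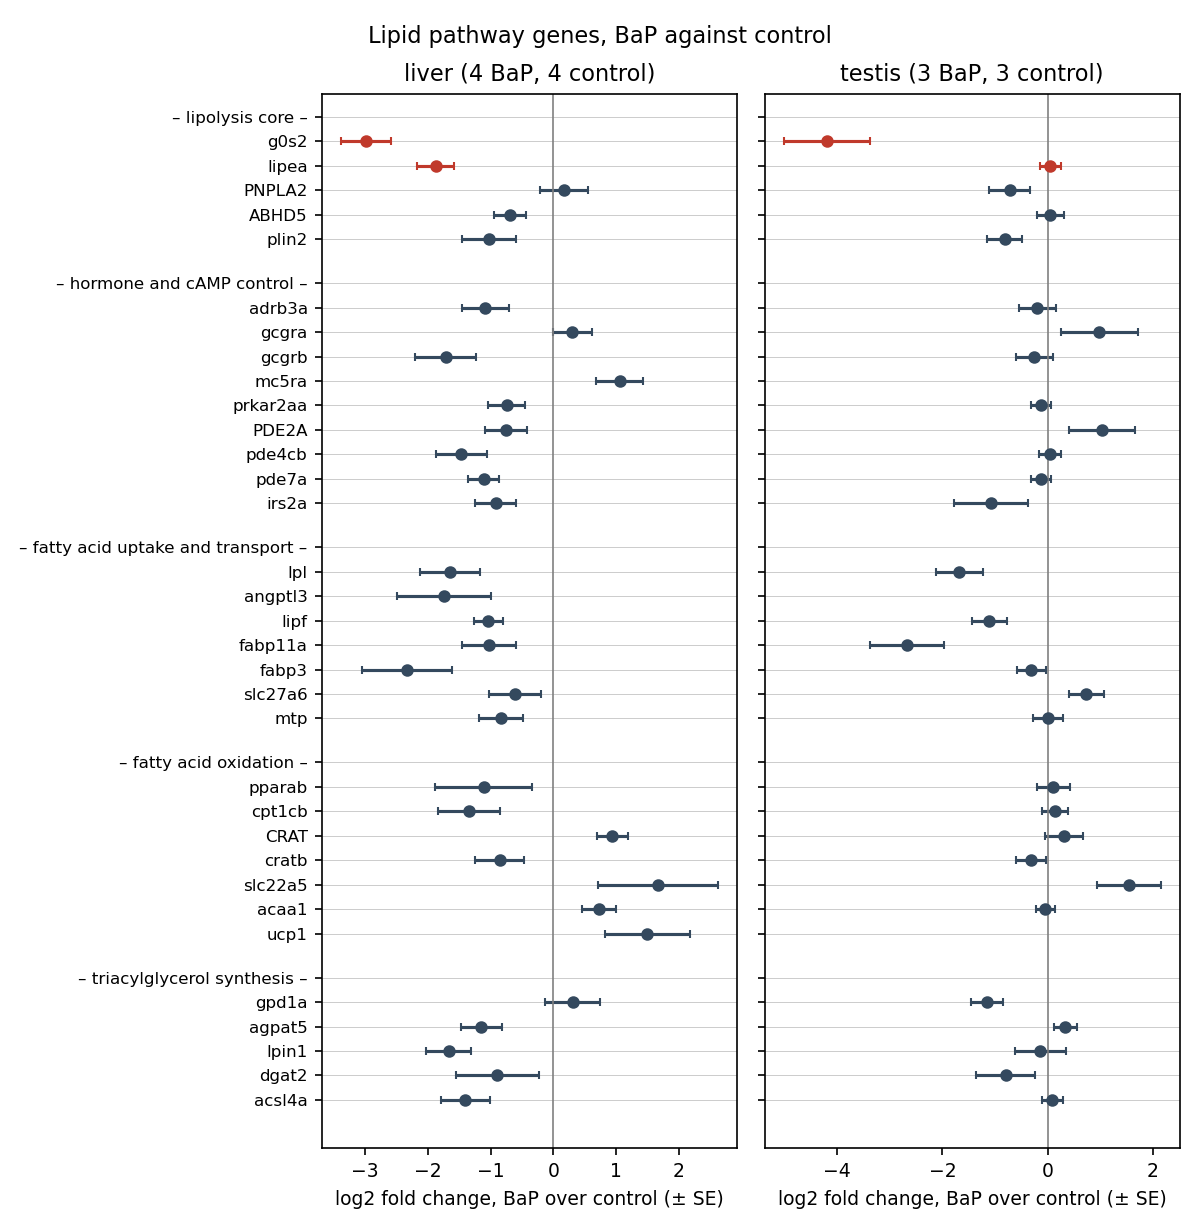
Log2 fold change of BaP over control (x axis) with its standard error for g0s2 and lipea (red) and 31 other lipid genes (dark) by list, in liver (left) and testis (right); a missing point is a gene not analysed in testis. In liver g0s2 lies at -2.99 and lipea at -1.88, and in testis g0s2 lies at -4.20 and lipea at 0.05; 0 of the 31 other genes passed an adjusted p of 0.05 from limma in either tissue.

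In testis 28 of the 31 genes were measured, and 0 passed an adjusted p of 0.05 from limma, where 0.00591% of all genes did. The quasi-likelihood test gave 0, the exact test 2 and DESeq2's Wald test 3. At an unadjusted p under 0.05, with or without a fold change over 1.5, 5 genes were lower with BaP, where 0.998% of all testis genes were at the study's threshold, and 1 was higher, where 1.18% were. The median log2 fold change over the 28 genes was -0.13, beside -0.02 over all testis genes. These genes too come from those the study called altered, mostly but not only in liver. Their testis counts are therefore no independent evidence of a direction either.

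These 5 genes, named after their values were seen, were plin2, lpl, lipf, fabp11a and gpd1a, and the higher one was slc22a5, a carnitine transporter. slc22a5 had 0.624, 4.40 and 8.65 normalized CPM in the BaP testes and 0.738, 0.243 and 0.586 in the control testes, overlapping through BaP replicate 1. fabp11a, a fatty acid binding protein of fish adipocytes, had 48.1, 54.2 and 123.9 normalized CPM in the BaP testes and 148.6, 700.4 and 839 in the control testes. lpl had 149, 127 and 243 in the BaP testes and 281, 704 and 785 in the control testes. gpd1a, a glycerol-3-phosphate dehydrogenase, had 27.1, 32.2 and 29.7 in the BaP testes and 43.3, 76.4 and 91.2 in the control testes. None of the 3 overlapped between the groups, where 2.84% of all testis genes had every BaP testis below every control testis. Nothing is read from this, since the 3 were named after their values were seen. Each was lowest of the control testes in fish 18, as g0s2 was. Log2 fold changes were -2.68 (SE 0.70) for fabp11a, -1.68 (SE 0.45) for lpl and -1.15 (SE 0.30) for gpd1a, each with an adjusted p of 1.00 from limma. These values depend on the test. Over the alternatives that kept every fish, the lowest adjusted p (limma, edgeR or DESeq2) was 0.00035 for fabp11a, 0.0079 for lpl and 0.026 for gpd1a. It was 0.62 for plin2, 0.14 for lipf and 0.14 for slc22a5.

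Over the 6 testes gpd1a had the highest r with g0s2 of 16405 genes (r = 0.995). fabp11a was at rank 23 (r = 0.946) and plin2 at rank 36 (r = 0.937). These r include the difference between the groups. After centring on group means the nearest named genes were SLC29A2, creb3l3l and klf11a, and plin2 was at rank 312 (r = 0.930). In liver gpd1a had a log2 fold change of 0.31 (SE 0.44) and 102.9 ± 26.2 normalized CPM in BaP and 95.2 ± 60.9 in control fish (SD, n = 4 each). The gene nearest to g0s2 in testis thus overlapped between the groups of livers.

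**Figure D5:**
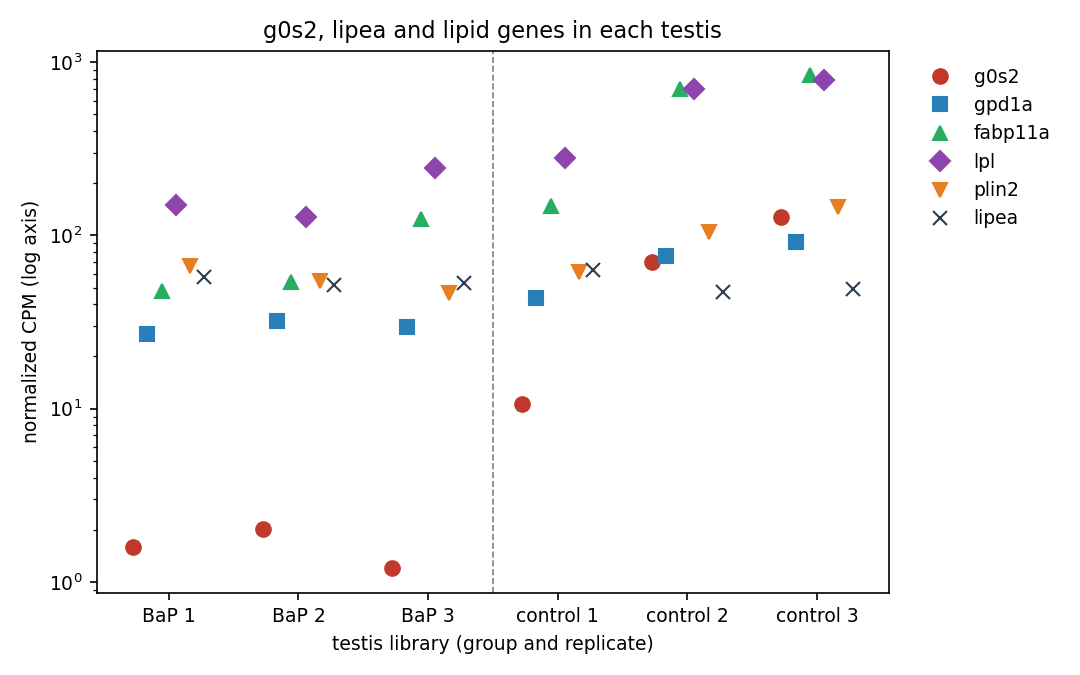
Normalized CPM (log axis) of g0s2, gpd1a, fabp11a, lpl, plin2 and lipea in each testis library, BaP left of the dashed line and control right of it. g0s2 has 1.20 to 2.02 in BaP and 10.6 to 127.9 in control testes, control 1 is the lowest control testis for all genes shown other than lipea, and lipea is at 46.8 to 62.7 throughout.

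Markers of other cell types were summed in the testis groups as well. All of them were taken from genes the study called altered in these libraries. A difference of the sums, in testis or liver, is therefore no independent measure of cell content. In testis fabp11a and lpl of the adipocyte list are also among the lower genes named above. The summed level of the adipocyte list (fabp11a, cfd and lpl, all 3 measured) was 204, 197 and 380 in the BaP testes and 439, 1416 and 1633 in the control testes. The third gene of that list, cfd (adipsin), had 7.01, 15.4 and 12.3 in the BaP testes and 8.97, 11.8 and 9.52 in the control testes, overlapping. The summed level of the red blood cell list (2 genes named HBB and klf1, all 3 measured) was 64.0, 29.4 and 61.6 in the BaP testes and 44.7, 608 and 414 in the control testes. Control replicate 1 (fish 18), the control testis with the least g0s2, was thus also within the BaP range for the red blood cell list. Exocrine pancreas markers were measured for 7 of 7 genes. They summed to 9.69, 84.8 and 188 in the BaP testes and to 4.39, 8.89 and 4.06 in the control testes. These sums were higher with BaP and did not overlap, by the narrow margin of 9.69 against 8.89. As single genes, try, ela2, ela2l and ela3l overlapped between the groups, and CELA1 and the genes named AMY2B did not. The share of all testis genes with every BaP testis above every control testis was not counted. Nothing is therefore read from the lack of overlap. The part of adipose cells, blood or pancreatic tissue in the g0s2 difference was not tested.

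In liver the adipocyte list summed to 1025, 583, 286 and 426 in the BaP fish and to 1060, 1416, 813 and 1384 in the control fish, where lpl made up most of it. cfd of the same list had the opposite order, with 160.5, 185.4, 119 and 159.5 in the BaP livers and 52.0, 92.8, 62.9 and 83.0 in the control livers, a log2 fold change of 1.11 (SE 0.25, limma adjusted p = 0.171). The red blood cell list summed to 115, 721, 305 and 143 in the BaP livers and to 1548, 2933, 148 and 1240 in the control livers. Control replicate 3 (fish 18), at 148, was again within the BaP range. That liver had 740.1 normalized CPM of g0s2 and 31.5 of lipea, where the highest BaP livers had 195.1 and 14.4. Without that liver the log2 fold change was -3.14 for g0s2 and -2.07 for lipea. That fit cannot separate the members from this list, since the control livers left in it were at 1240 to 2933. Exocrine pancreas markers, 7 of 7 measured, summed to between 24371 and 27473 in the BaP livers and between 9192 and 29147 in the control livers. The part of blood, adipose cells or pancreatic tissue in the liver differences was not tested.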

How the data were processed

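Liver (4 BaP and 4 control fish) and testis (3 BaP and 3 control fish) libraries were grouped by their labels. Total RNA was poly(A)-selected. The authors trimmed the reads, aligned them with TopHat and tested them with edgeR; tool versions, genome build, annotation and the counting program are not given in the sources used here. The deposited values are a normalized signal: the authors divided reads per gene by the library's total and TMM factor and scaled them to counts per 1000000 (CPM). TMM factors recomputed from the recovered reads were 0.858 to 1.19. In every library 100% of values were whole reads within 0.05. The number of columns not used was 0. The tables had been filtered on low counts before deposit by a rule not given in the sources used here.

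Within each tissue, BaP fish were set against control fish with limma 3.58.1 (R 4.3.3) on log2(value + 1), over all deposited genes, with Benjamini-Hochberg adjustment. The added 1 makes changes of low genes smaller. edgeR 4.0.16 and DESeq2 1.42.0 were run on recovered reads as alternatives, beside a pseudocount of 0.1, other scalings, a low-value filter, a replicate block and leaving out each replicate. limma, edgeR and DESeq2 were also run on simulated counts with known changes, drawn from a count model fitted to these data. That run cannot decide which test gives the right number of genes in the real data. Pearson r used log2(value + 1) over genes with a mean of at least 1. Same-numbered BaP and control replicates are different fish.

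The members and lists were chosen with earlier results of these data known. Named genes are the members, the lipolysis core, the 2 genes of each other list with the smallest liver p and the 3 named genes nearest each member in liver; others are said to be named after their values were seen. Names came from the study's supplementary list (1526 IDs, 1437 with a name), which holds only altered genes. Coordinates and sequences are not reported here.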

Additional observations from a re-analysis of the deposited data

How the results depend on the processing

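Under the 8 alternatives that kept every fish, the log2 fold change was -3.19 to -2.99 for g0s2 and -2.07 to -1.88 for lipea in liver, -5.44 to -4.15 for g0s2 in testis and 0.04 to 0.11 for lipea in testis (adjusted p from limma, edgeR or DESeq2 of 0.999 to 1.00). For g0s2 in testis the low end came from edgeR's quasi-likelihood test on reads, and a pseudocount of 0.1 gave -4.78. Leaving out 1 fish gave -3.20 to -2.70, -2.07 to -1.68 and -5.22 to -3.48 for the first 3, and -0.035 to 0.17 for lipea in testis, negative without control replicate 2. PNPLA2 in liver was -0.033 with scaling by library size only, which shifted the median of all liver genes to -0.16, and -0.042 to 0.46 without 1 fish. ABHD5 in testis was -0.17 to 0.24 without 1 fish. After centring on group means, r of g0s2 and lipea was -0.055 in liver and -0.87 in testis.

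Of the 31 other lipid genes, 6 passed an adjusted p of 0.05 in liver with edgeR's exact test and 8 with DESeq2, and 2 and 3 did in testis. In liver pde7a, lipf, lpin1 and acsl4a passed with both tests, and CRAT with DESeq2 only. PNPLA2, ABHD5, plin2, pde4cb, mc5ra, lpl, cpt1cb and acaa1 passed with neither. Leaving out 1 fish gave 0 to 7 of the 31 genes in liver with limma, the 7 without control replicate 3. At the study's threshold DESeq2 gave 10 in testis. Leaving out 1 fish gave 14 to 25 in liver (11 to 20 lower, the low end without control replicate 1) and 4 to 7 in testis (4 to 7 lower). Over all genes, the count at an adjusted p of 0.05 was 9 in liver and 1 in testis with limma, 5 and 0 with the quasi-likelihood test, 224 and 29 with the exact test, 443 and 54 with DESeq2, 0 and 0 with a pseudocount of 0.1, and 216 in liver without control replicate 3. The cause was not tested.

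The replicate block, whose numbers join different fish, left the members' log2 fold changes at -2.99 and -1.88 in liver and -4.20 and 0.05 in testis. It gave 0 of the other lipid genes at an adjusted p of 0.05 in either tissue, and 2 and 0 genes over all genes. Deviations of same-numbered fish had correlations of -0.02 to 0.20 in liver and -0.08 to 0.37 in testis. The lowest level of a member rests on 37 reads (g0s2 in a BaP testis), and the groups hold 4 or 3 fish each.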

Other observations

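The fish numbered 18, 19 and 20 were control fish in both tissues. Their g0s2 levels were 740.1, 1832.4 and 653.3 normalized CPM in liver and 10.6, 70.1 and 127.9 in testis, so that fish 20 was the lowest control in liver and the highest in testis. For lipea they were 31.5, 61.1 and 72.8 in liver and 62.7, 46.8 and 49.2 in testis, where fish 18 was the lowest in liver and the highest in testis. The BaP fish 11, 14 and 15 had g0s2 levels of 112.9, 72.8 and 158.7 in liver and 1.58, 2.02 and 1.20 in testis. These testis levels rest on 43, 61 and 37 reads with overlapping Poisson intervals, so that their order is not resolved. The lipea levels of the same BaP fish were 11.5, 13.4 and 14.4 in liver and 57.7, 51.9 and 53.3 in testis. Hence the order of the control fish in liver did not carry over to testis for either member, over 3 fish and with the titles alone to join the tissues. No order is read for the BaP fish.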
